A study of Mus with 4 samples.

Results

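The genes described here are those that make, bind, sense and degrade retinoic acid. They comprise *Aldh1a1*, *Aldh1a2*, *Aldh1a3*, *Rara*, *Rarb*, *Rarg*, *Rxra*, *Rxrb*, *Cyp26b1* and *Crabp2*. All 10 genes were matched to the array, by 13 of its 41174 probes, with 2 probes each for *Rarg*, *Rxra* and *Rxrb* and 1 probe for each of the other 7. Members were chosen by name and every one of their probes is given. Expression was measured in GFP-positive cells sorted from mouse kidneys at E15.5, where the *Six2* promoter drives a Cre and EGFP transgene in nephron progenitors. *Mut* cells carried that transgene with *PRR* flox/flox alleles and *WT* cells carried it with *PRR* +/+, so both groups expressed Cre. On arrays 1, 2 and 3 of a dual-colour Agilent slide, *Mut* pools 1, 2 and 3 in Cy3 were each hybridized with their like-numbered *WT* pool in Cy5. On array 4, the *WT* vs *WT* array, *WT* pool 1 in Cy5 was set against *WT* pool 2 in Cy3. Each pool held cells of several kidneys. Dye and genotype coincide on arrays 1 to 3 and cannot be told apart there.

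Retinoic acid is made from vitamin A. Retinol is first oxidized to retinal, and the retinaldehyde dehydrogenases encoded by the *Aldh1a* genes turn retinal into retinoic acid. Inside the cell CRABP2 carries it to nuclear receptors, which bind DNA as pairs of a retinoic acid receptor (RAR) and a retinoid X receptor (RXR), while enzymes of the CYP26 family oxidize and remove it. In the embryonic kidney retinoic acid is known as a signal from the stroma that acts through RARs in the ureteric bud, where it maintains *Ret*.

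Among the 13 probes, 1 passed both thresholds used here, an adjusted *P* (Benjamini-Hochberg, over all probes) below 0.05 together with a difference beyond 1.5-fold. It is a probe of *Rxrb*, which fell by 0.90 on the log2 scale in *Mut*, while the brighter probe of the same gene was at -0.17 and did not reach 1.5-fold. No member probe was called higher. None of the *Aldh1a* genes, RARs, *Rxra*, *Cyp26b1* or *Crabp2* was called in either direction. Over all 41166 probes tested, 2.01% were called, 0.551% as higher and 1.46% as lower in *Mut*, and the single call among 13 probes is to be read against that background. The split of calls moved with the processing. Of all probes 3.62% were called higher and 2.95% lower with the log ratios the authors deposited, and 0.355% higher and 0.430% lower with a dye term estimated from array 4, which left no member called in either case. At an unadjusted *P* under 0.05 with the same fold minimum the members again gave 0 higher and 1 lower (limma), as they did with the methods' *t*-test before adjustment, which called 1.68% of all probes. After adjustment the *t*-test called none. With limma at the unadjusted *P*, 231 of all probes were higher and 600 lower. Other processing gave other counts at the unadjusted *P*. From the deposited log ratios 2 member probes were higher (*Aldh1a1* and the dimmer *Rxra* probe) and 2 lower (the dimmer probes of *Rxrb* and *Rarg*). Of all 41166 probes 3556 were higher and 3987 lower there. Without the offset 0 member probes were higher and 2 lower (the same dimmer probes), beside 1347 and 2175 of all probes. With median centring 0 were higher and 2 lower (both *Rxrb* probes), beside 12 and 6016 of all probes. On the adjusted *P* alone 4 member probes had a positive and 3 a negative ratio, where 13.2% and 16.4% of all probes did, 29.6% together. The median log2 *Mut*/*WT* of the 13 probes was -0.03, beside -0.00 over all probes, whose middle range from the lower to the upper quartile ran from -0.10 to 0.09. With median centring the member median was -0.25, beside 0.01 over all probes. For 12 of the 13 probes the 95% confidence interval of the log2 ratio lay within 1.5-fold in both directions on this scale, which understates the change of dim probes.

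**Figure D1:**
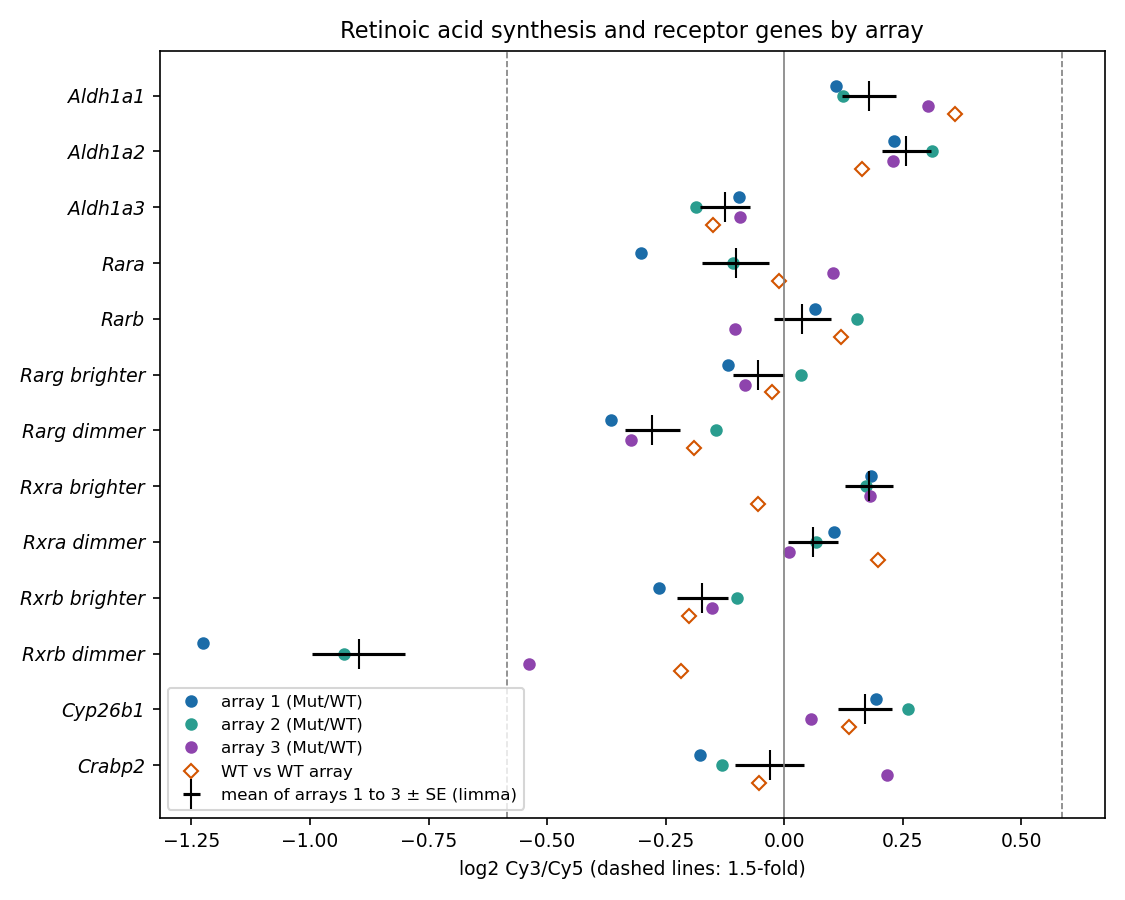
Log2 Cy3/Cy5 (x axis) of the 13 probes (y axis) on arrays 1 to 3, where it is *Mut*/*WT* (filled circles), and on the *WT* vs *WT* array (open diamonds). Black bars give the mean of arrays 1 to 3 with its SE and dashed lines mark 1.5-fold. The dimmer *Rxrb* probe, with a mean of -0.90, lies beyond 1.5-fold, and the means of the other probes lie between -0.28 and 0.26.

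The arrays were checked first. *Atp6ap2*, the gene of *PRR*, had a log2 *Mut*/*WT* of -0.08, -0.19 and -0.25 on arrays 1, 2 and 3. The mean of -0.17 (SE 0.055, adjusted *P* = 0.0351, limma) passed the adjusted *P* alone and was short of 1.5-fold. On the *WT* vs *WT* array the ratio was -0.19, and the dye term left 0.02 (adjusted *P* = 0.966). This probe thus did not separate the genotypes beyond the *WT* vs *WT* ratio, and the direction of each ratio rests on the dye labels. Whether the probe lies in the floxed part was not determined. The sorted cells carried the label's markers: all 10 nephron progenitor genes listed, *Six2*, *Cited1* and *Osr1* among them, were well above background in *WT* on all 3 arrays, and none was called. On the adjusted *P* alone 2 of the 10 passed with a positive and 5 with a negative ratio, *Meox1* lowest at -0.49. Of the 10 differentiating nephron genes 6 passed with a positive and 0 with a negative ratio. Of all probes 13.2% passed with a positive and 16.4% with a negative ratio. Of 8 endothelial genes 3 were well above background in *WT* on all 3 arrays, of 8 erythroid genes 2, of 6 macrophage genes 5, of 10 ureteric bud genes 8 and of 10 renal stroma genes 9. Among the differentiating nephron genes, *Lhx1* was called higher, at 0.69, and *Hba-a1*, at 1.17, was called higher among the erythroid genes. *Jag1* and *Fgf8* of the nephron list were at 0.44 and 0.40 and not called. The study describes *Lhx1*, *Jag1* and *Fgf8*, among others, as lower in *Mut*, opposite to the sign here. Against *WT* pool 2 of array 4 in the same dye, the mean of the *Mut* pools was at -0.13 for *Lhx1* and -0.07 for *Jag1*. It was at 0.03 for *Fgf8* and 0.03 for *Hba-a1*. *WT* pool 1 was higher on array 4 than on array 1 by 0.76 for *Lhx1* and 0.64 for *Jag1*. The rise was 0.36 for *Fgf8* and 1.44 for *Hba-a1*. With the dye term *Lhx1* (0.67, adjusted *P* = 0.0159, limma) and *Hba-a1* (1.39, adjusted *P* = 0.000167) stayed called. *Jag1* was then at 0.55 (adjusted *P* = 0.0299) and *Fgf8* at 0.34 (adjusted *P* = 0.181), neither called. The mean level of the differentiating nephron list was 7.09 to 7.16 in the *WT* and 7.35 to 7.39 in the *Mut* channels of arrays 1 to 3, and 7.40 and 7.43 in the *WT* channels of array 4. That of the erythroid list was 6.70 to 6.87, 7.04 to 7.12, and 7.11 and 7.09 in the same channels. Stromal genes that were called are given beside *Aldh1a2*. In mixed sorted cells, fewer cells of a type and less RNA per cell cannot be told apart.

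Of the retinaldehyde dehydrogenase genes, *Aldh1a2* encodes RALDH2, the main retinoic acid synthesizing enzyme of the mid-gestation embryo. Its probe was far above background in every channel, with a median intensity of 14395 to 17325 in Cy5 against a local background of 45 to 56.5, and of 6975.5 to 9361 in Cy3 against 16 to 20.5. The normalized log2 signal of *Aldh1a2* was 13.55, 13.34 and 13.25 in *WT* pools 1, 2 and 3 and 13.79, 13.65 and 13.48 in *Mut* pools 1, 2 and 3. On each array *Mut* was the higher channel, but the levels of both groups overlapped between arrays. The log2 *Mut*/*WT* of 0.23, 0.31 and 0.23 had a mean of 0.26 (SE 0.052, adjusted *P* = 0.00309, limma), 1.20-fold, short of the fold threshold. On the *WT* vs *WT* array, with no difference of genotype, the Cy3 channel of *Aldh1a2* was likewise the higher by 0.16, and a dye term estimated from that array left 0.09 (adjusted *P* = 0.739). Within the same dye, the mean of the *Mut* pools lay 0.22 above *WT* pool 2. With each array centred on its median in place of loess the value of *Aldh1a2* turned to -0.45 (adjusted *P* = 0.325).

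Some genes of the renal stroma, a cell type known to express *Aldh1a2*, were called higher in *Mut*. Of 10 stromal genes, 3 were called higher, namely *Col1a1* at a log2 *Mut*/*WT* of 0.89, *Col3a1* at 0.78 and *Pdgfrb* at 0.60, and none lower, where 0.551% of all probes were called higher. Their ratios between the *WT* pools of array 4 had the same sign, 0.43, 0.27 and 0.18. With the dye term all 3 calls were lost, at 0.46 for *Col1a1* (adjusted *P* = 0.0901), 0.51 for *Col3a1* (adjusted *P* = 0.0832) and 0.43 for *Pdgfrb* (adjusted *P* = 0.202). The study describes *Pdgfrb* as lower in *Mut*, opposite to the sign here. *Foxd1*, the transcription factor that defines the stromal progenitors, was at -0.30 and not called, and *Lum*, the lowest of the list, was at -0.42 (adjusted *P* = 0.000309) and not called. On the adjusted *P* alone 6 of the 10 passed with a positive and 2 with a negative ratio, beside 13.2% and 16.4% of all probes. The mean normalized log2 signal over all 10 ranged from 8.79 to 8.81 in the *WT* pools of arrays 1 to 3 and from 8.97 to 9.10 in the *Mut* pools. *WT* pools 1 and 2 on the *WT* vs *WT* array were at 8.90 and 8.96. The part of stromal cells in the value of *Aldh1a2* was not tested.

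*Aldh1a1* and *Aldh1a3* encode the other retinaldehyde dehydrogenases. *Aldh1a1* was near background, with *WT* and *Mut* each well above it on 2 of 3 arrays. Its normalized log2 signal was 6.49, 6.48 and 6.25 in *WT* pools 1, 2 and 3 and 6.60, 6.60 and 6.55 in the *Mut* pools, so that every *Mut* value lay above every *WT* value of these arrays. Levels that did not overlap, in either direction, were found at 38.0% of all probes (17.5% with *Mut* above, 20.5% with *Mut* below) and at 5 of the 13 (2 and 3). The log2 *Mut*/*WT* of *Aldh1a1* was 0.11, 0.12 and 0.30, with a mean of 0.18 (SE 0.057, adjusted *P* = 0.0338). The *WT* vs *WT* array gave a larger ratio, 0.36, and with the dye term *Aldh1a1* turned to -0.18 (adjusted *P* = 0.511). It was larger with the deposited log ratios, at 1.03 (adjusted *P* = 0.0653), and without the offset of normexp, at 0.44 (adjusted *P* = 0.187), and was called in neither. *WT* pool 2 in Cy3 was at 6.55, 0.04 below the mean of the *Mut* pools in the same dye. *Aldh1a1* was the 1 member whose *Mut* levels lay above all 5 *WT* channels of the slide, which 6.63% of all probes shared. The margin was slight, with *Mut* pool 3 at 6.5523 and *WT* pool 2 in Cy3 at 6.5515.

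*Aldh1a3* was well above background in all channels. Its signal was 6.97, 6.87 and 6.84 in *WT* pools 1, 2 and 3 and 6.88, 6.69 and 6.75 in the *Mut* pools, and the groups overlapped. The log2 *Mut*/*WT* of *Aldh1a3* was -0.10, -0.19 and -0.09, with a mean of -0.12 (SE 0.052, adjusted *P* = 0.0942, 95% confidence interval -0.24 to -0.01). Between the *WT* pools of array 4 it was -0.15, larger in size than the mean between the genotypes. The deposited log ratios gave -0.33 (adjusted *P* = 0.0609).

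The RARs are the receptors that bind retinoic acid itself. *Rarb*, which is also a known direct target of retinoic acid, was well above background in every channel. The signal of *Rarb* was 9.62, 9.58 and 9.56 in *WT* pools 1, 2 and 3 and 9.69, 9.73 and 9.45 in the *Mut* pools, with *Mut* pool 3 below all *WT* pools of these arrays and *Mut* pools 1 and 2 above them. The mean log2 *Mut*/*WT* of *Rarb* was 0.04 (SE 0.059, adjusted *P* = 0.669, 95% confidence interval -0.09 to 0.17). It turned to -0.53 with median centring (adjusted *P* = 0.262) and to -0.08 with the dye term (adjusted *P* = 0.814). The array held this probe in 10 spots, of which 1 was left out on array 2 as an outlier. The SD of the log2 ratio over the spots of an array was between 0.01 and 0.05, smaller than the SD of 0.13 between arrays 1, 2 and 3.  Spots of 1 array are technical repeats and were averaged.

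*Rara* and the brighter *Rarg* probe gave signals near background. *Rara* was well above it in *WT* pool 2 of arrays 1 to 3 and *WT* pool 1 of array 4 and in no *Mut* channel, and its log2 *Mut*/*WT* changed sign between arrays, at -0.30, -0.11 and 0.10 (mean -0.10, SE 0.070, adjusted *P* = 0.299). The brighter probe of *Rarg* was not well above background in any channel of the slide, with log2 *Mut*/*WT* values of -0.12, 0.04 and -0.08 (adjusted *P* = 0.481). The deposited log ratios gave larger values, -0.74 for *Rara* (adjusted *P* = 0.393) and -0.77 for this *Rarg* probe (adjusted *P* = 0.205). For these probes a level can be given only as near background.

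The dimmer probe of *Rarg* was well above background in *WT* pools 2 and 3 and in no *Mut* pool. Its signal was 6.46, 6.31 and 6.52 in the *WT* pools and 6.10, 6.17 and 6.19 in the *Mut* pools, all of which were below the 5 *WT* channels of the slide. All 3 *Mut* values below all 5 *WT* channels were found at 10.1% of all probes. Its mean log2 *Mut*/*WT* was -0.28 (SE 0.058, adjusted *P* = 0.0038), short of 1.5-fold. Since *Mut* was not well above background, the difference is a bound, with *WT* at least 1.02-fold higher. The bound sets the mean *WT* signal against the higher, on each array, of the *Mut* signal and the dimmest signal well above background, and is open to dye bias. Its size depended on the processing, with -2.16 from the deposited log ratios (adjusted *P* = 0.0505), -0.94 without the offset (adjusted *P* = 0.154) and -0.09 with the dye term (adjusted *P* = 0.785).

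The RXRs are the shared partners of the RARs and of other nuclear receptors. *Rxrb* gave the one call among the members, at the dimmer of its probes, which was well above background in every channel of the slide. The normalized log2 signal of that probe was 8.74, 8.48 and 8.48 in *WT* pools 1, 2 and 3 and 7.51, 7.55 and 7.94 in the *Mut* pools. On the *WT* vs *WT* array *WT* pool 1 in Cy5 was at 8.45 and *WT* pool 2 in Cy3 at 8.23. All 3 *Mut* pools thus lay below all 5 *WT* channels, with *Mut* pool 3 nearest to them. Before normalization its Cy3 intensity was 112.5, 123 and 167 in *Mut* pools 1, 2 and 3 and 262.5 in *WT* pool 2, while the Cy5 intensity of the *WT* pools ranged from 451 to 534 over the 4 arrays.

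The log2 *Mut*/*WT* of the dimmer *Rxrb* probe was -1.23 on array 1, -0.93 on array 2 and -0.54 on array 3. Their mean of -0.90 (SE 0.097, adjusted *P* = 5.9e-05, limma) was 1.86-fold lower in *Mut*. It was lower on 3 of 3 arrays, and it was also -0.22 on the *WT* vs *WT* array. Leaving out each array in turn kept the call, at -0.73 without array 1, -0.88 without array 2 and -1.08 without array 3, where 0.947%, 1.48% and 2.23% of all probes were called lower. The call was lost with the dye term (-0.68, adjusted *P* = 0.134), the deposited log ratios (-1.24, adjusted *P* = 0.103), normexp without its offset (-1.12, adjusted *P* = 0.115) and median centring (-1.35, adjusted *P* = 0.0791), although the value stayed beyond 1.5-fold in each. Within the same dye the mean of the *Mut* pools minus *WT* pool 2 was -0.57 on the log2 scale, short of 1.5-fold.

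The brighter *Rxrb* probe was at 9.92, 9.82 and 9.79 in *WT* pools 1, 2 and 3 and at 9.66, 9.72 and 9.64 in the *Mut* pools. These groups did not overlap either, but the difference was small, with log2 *Mut*/*WT* values of -0.27, -0.10 and -0.15 and a mean of -0.17 (SE 0.054, adjusted *P* = 0.033). The *WT* vs *WT* array gave -0.20 at this probe, and the dye term left 0.03. Median centring gave -0.75 (unadjusted *P* = 0.0172, adjusted *P* = 0.147, limma). The log2 *Mut*/*WT* of the dimmer probe minus that of the brighter was -0.96, -0.83 and -0.38 on arrays 1, 2 and 3 (mean -0.72, SD 0.30), and -0.02 between the *WT* pools. Both probes are assigned to the same *Rxrb* transcript record. The difference between them had an exact sign-flip *P* of 0.25 (two-sided, 3 arrays). That is the smallest *P* this test can give with 3 arrays, so it cannot decide whether the probes differ. Which part of the transcript each probe binds was not determined.

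*Rxra* encodes the RXR that is most widely needed in the embryo. At its brighter probe the signal was 8.84, 9.09 and 9.09 in *WT* pools 1, 2 and 3 and 9.02, 9.26 and 9.27 in the *Mut* pools. The log2 *Mut*/*WT* of that probe was 0.18, 0.17 and 0.18, with the smallest SD between arrays of the 13 probes, 0.006, and a mean of 0.18 (SE 0.051, adjusted *P* = 0.0204). This difference of 1.13-fold was short of the fold threshold. Its ratio on the *WT* vs *WT* array was -0.06, and the dye term gave 0.23 (adjusted *P* = 0.314). Median centring turned it to -0.37 (adjusted *P* = 0.332). *WT* pool 1 in Cy5 was at 8.84 on array 1 and at 9.35 on array 4. This difference of 0.51 between repeated measurements of 1 pool was larger than that between the genotypes. It was taken between arrays, whereas the genotypes were compared within each array. The dimmer probe of *Rxra* was not well above background in any channel and was at 0.06 (adjusted *P* = 0.412). Its value was 0.94 with the deposited log ratios (adjusted *P* = 0.0571) and -0.14 with the dye term (adjusted *P* = 0.594).

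**Figure D2:**
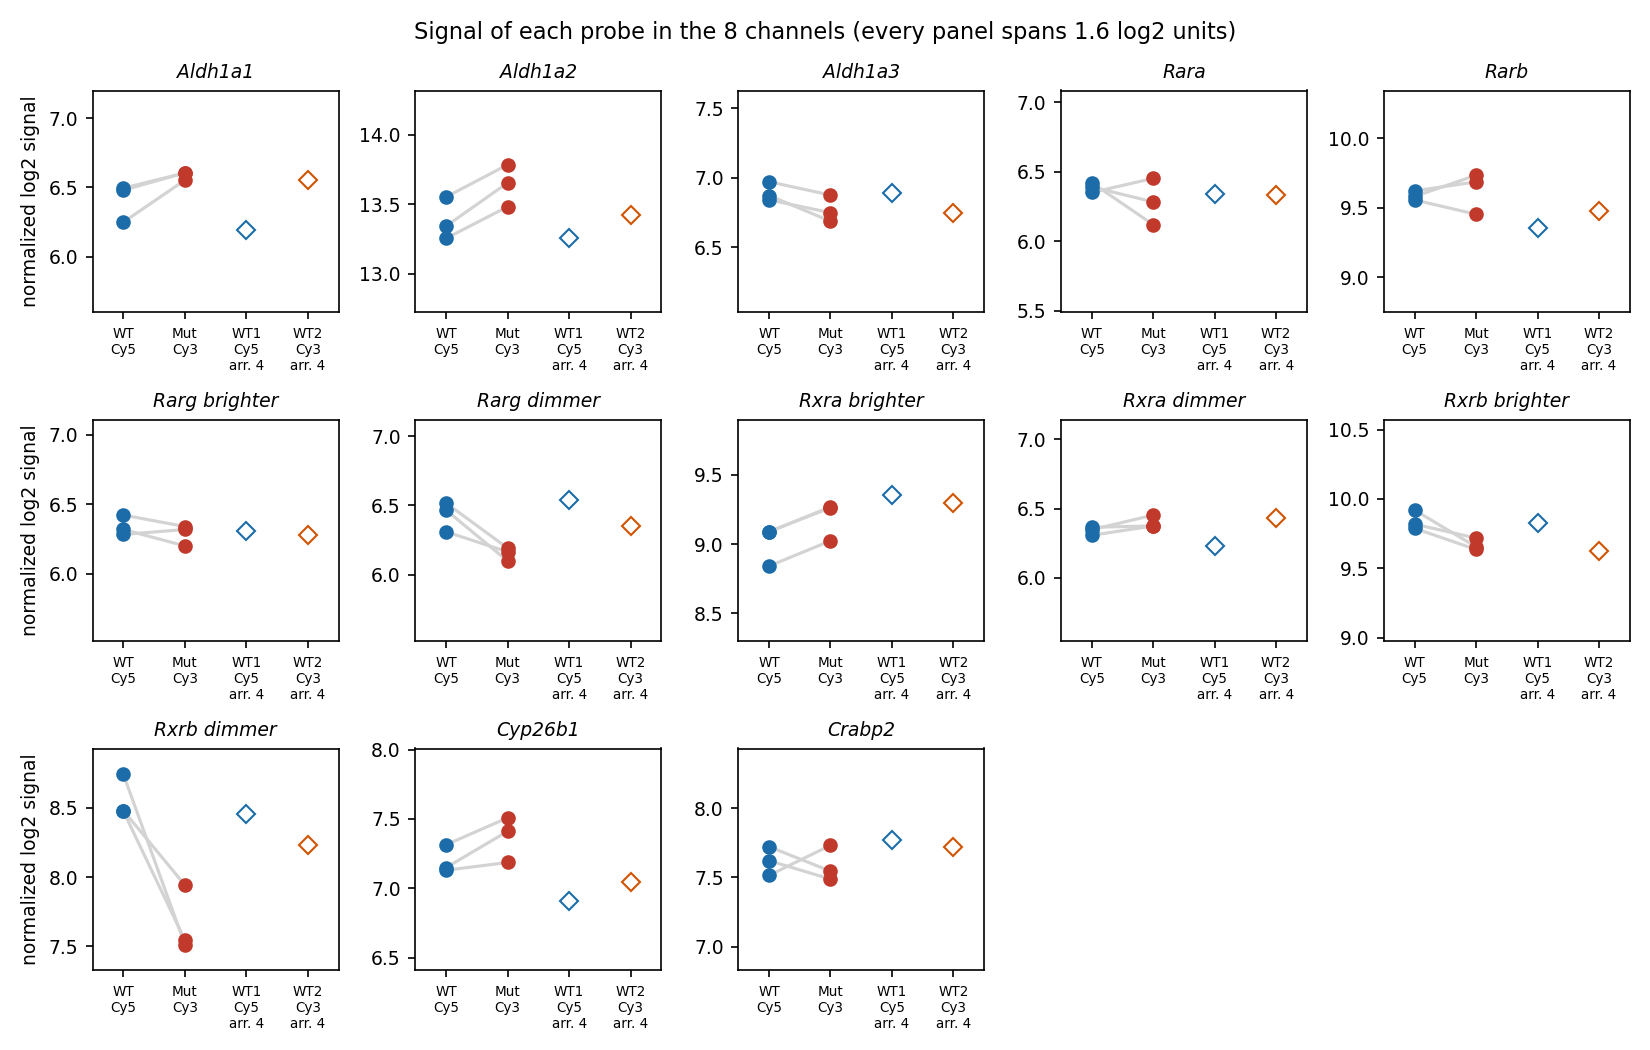
Normalized log2 signal (y axis) of each probe in *WT* pools in Cy5 (blue circles) and *Mut* pools in Cy3 (red circles) of arrays 1 to 3, joined by array in grey, and in both *WT* channels of array 4 (open diamonds). Each panel has its own range of signal with the same span. The *Mut* pools of the dimmer *Rxrb* probe, at 7.51 to 7.94, lie below its 5 *WT* channels, at 8.23 to 8.74.

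*Cyp26b1* encodes a cytochrome P450 that degrades retinoic acid. It was well above background in every channel, with signals of 7.31, 7.15 and 7.13 in *WT* pools 1, 2 and 3 and 7.51, 7.41 and 7.19 in the *Mut* pools. *Mut* was the higher channel on each array, and the groups overlapped. The mean log2 *Mut*/*WT* of *Cyp26b1* was 0.17 (SE 0.057, adjusted *P* = 0.0409), 1.13-fold. Its ratio on the *WT* vs *WT* array was 0.14, and with the dye term 0.03 remained. *WT* pool 1 in Cy5 differed by -0.41 between array 4 and array 1. *Cyp26b1* turned to -0.10 with median centring and was at 0.42 with the deposited log ratios (adjusted *P* = 0.104).

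*Crabp2* encodes the carrier that hands retinoic acid to the RARs. Its signal was 7.72, 7.62 and 7.51 in *WT* pools 1, 2 and 3 and 7.54, 7.49 and 7.73 in the *Mut* pools. *Mut* was lower on arrays 1 and 2 and higher on array 3, with log2 *Mut*/*WT* values of -0.18, -0.13 and 0.22. The mean of *Crabp2*, -0.03 (SE 0.073, adjusted *P* = 0.788, 95% confidence interval -0.19 to 0.13), did not exceed its error, and it turned to 0.04 without array 1 and to 0.02 without array 2. With median centring *Crabp2* was at -0.39 (unadjusted *P* = 0.044, adjusted *P* = 0.21, limma).

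The *WT* vs *WT* array serves as the background for these ratios. Its log2 Cy3/Cy5 ranged from -0.22 to 0.36 over the 13 probes and was larger in size than the mean log2 *Mut*/*WT* at 6 of them. Array 4 holds *WT* pools 1 and 2, which also enter the ratios of arrays 1 and 2, so the signs are not independent and are not counted. *WT* pool 1 was hybridized in Cy5 on array 1 and again on array 4. At 7 of the 13 probes its levels there were farther apart than *Mut* and *WT*. Those levels come from different arrays, whereas *Mut* and *WT* were compared within each array. In Cy3, where *Mut* pools and *WT* pool 2 carry the same dye, their distance on the log2 scale was within 1.5-fold at all 13 probes, from -0.57 at the dimmer *Rxrb* probe to 0.33 at *Cyp26b1*. It sets channels of different arrays side by side with a lone *WT* pool and was not tested. The ratio of array 4 holds the difference between *WT* pools 1 and 2 beside that between the dyes, so neither it nor the dye term gives the part of the dye alone. With the dye term no member was called in limma. Without adjustment 0 were higher and 1 lower, beside 152 higher and 336 lower of all probes.

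**Figure D3:**
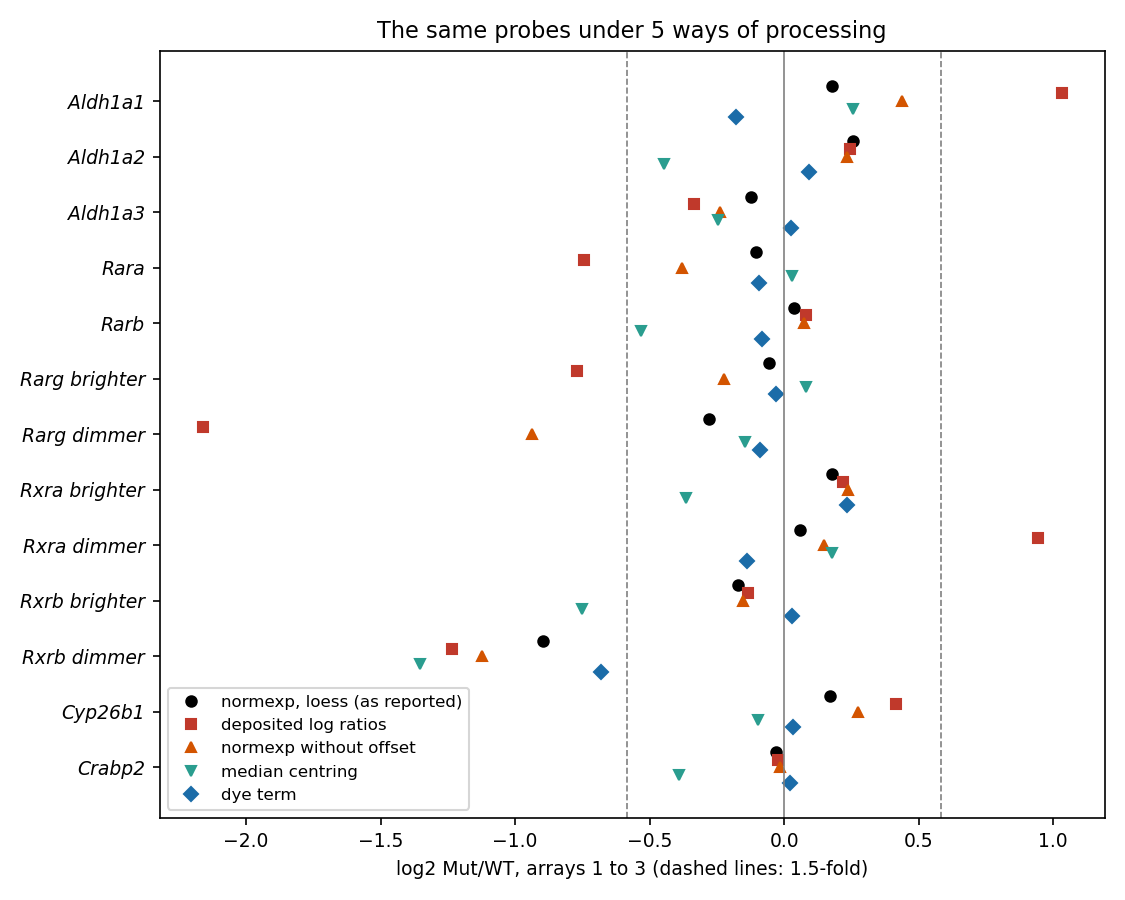
Log2 *Mut*/*WT* (x axis) of the 13 probes (y axis) under 5 ways of processing, each shown by its own symbol, with dashed lines at 1.5-fold. The dimmer *Rxrb* probe lies beyond 1.5-fold under each, from -0.68 to -1.35, whereas the dimmer *Rarg* probe runs from -0.09 with the dye term to -2.16 with the deposited log ratios.

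Other genes of the retinoic acid pathway are given by their brightest probe, and 37 of 38 listed genes had one. *Cyp26c1* was not matched. None of the 37 was called in *Mut* (0 in limma, with or without adjustment, and 0 in the methods' *t*-test), and 1 was with the deposited log ratios. At the unadjusted *P* there were 6 higher and 0 lower with the deposited log ratios, beside 3556 and 3987 of all probes. Without the offset 1 was higher and 0 lower, beside 1347 and 2175 of all probes. With median centring 0 were higher and 8 lower, beside 12 and 6016 of all probes. Without the fold minimum 11 with a positive and 3 with a negative ratio passed, 14 of 37, beside 13.2% and 16.4% of all probes. The median log2 *Mut*/*WT* of the 37 genes was 0.02.

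Of 13 genes of retinoid uptake, storage and oxidation, 5 with a positive ratio and 0 with a negative one passed the adjusted *P* alone. Of all probes 13.2% and 16.4% did. *Rdh5*, a retinol dehydrogenase, had the largest value, 0.32 (SE 0.055, adjusted *P* = 0.00113), beside 0.14 between the *WT* pools. *Stra6*, the membrane receptor that takes up retinol from its plasma carrier, was at 0.19 (adjusted *P* = 0.0198) and *Rbp4*, that carrier, at 0.17 (adjusted *P* = 0.0464). With the dye term *Rdh5* was at 0.18 (adjusted *P* = 0.484), *Stra6* at 0.08 (adjusted *P* = 0.794) and *Rbp4* at 0.07 (adjusted *P* = 0.833). *Lrat*, which esterifies retinol for storage, and *Adh7* made up the 5, and neither was well above background in *WT* or *Mut* on any array. The lowest value was that of *Rdh10*, the dehydrogenase that makes most retinal in the embryo, at -0.13 (adjusted *P* = 0.0872). *Dhrs3*, which reduces retinal back to retinol, was at -0.11 (adjusted *P* = 0.142).

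Of the other degrading enzymes, carriers and receptors, 5 of 6 were measured and 3 of the 5 stayed at background on arrays 1 to 3, *Cyp26a1* included. *Ppard*, the receptor reached through FABP5, was at 0.20 (adjusted *P* = 0.0169), beside 0.22 between the *WT* pools, and was not well above background in any channel. It was the gene called with the deposited log ratios, at 1.30. *Crabp1*, the second cellular carrier of retinoic acid, had the lowest value, -0.11 (adjusted *P* = 0.139).

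The 10 coregulators of the receptors were all well above background in *WT* on all 3 arrays. On the adjusted *P* alone 4 passed with a positive and 2 with a negative ratio, beside 13.2% and 16.4% of all probes. *Crebbp*, a histone acetyltransferase recruited by activated receptors, was at 0.29 (adjusted *P* = 0.00171) and *Ep300*, its relative, at 0.24 (adjusted *P* = 0.0138). *Hdac3*, a histone deacetylase of corepressor complexes, was at 0.24 (adjusted *P* = 0.0066). The 2 with a negative ratio were *Tbl1xr1* at -0.28 (adjusted *P* = 0.00217) and *Tbl1x* at -0.24 (adjusted *P* = 0.00445). With the dye term the values were 0.08 for *Crebbp*, 0.01 for *Ep300*, 0.22 for *Hdac3*, -0.23 for *Tbl1xr1* and -0.12 for *Tbl1x*, and none passed the adjusted *P*.

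Of 9 genes known as targets of retinoic acid, 1 with a positive and 1 with a negative ratio passed the adjusted *P* alone. Of all probes 13.2% and 16.4% did. The median log2 *Mut*/*WT* of the 9 genes was 0.02. *Meis1*, a homeobox gene, was at 0.24 (adjusted *P* = 0.0168), beside 0.22 between the *WT* pools. *Rarres2*, which encodes the chemoattractant chemerin, had the lowest value, -0.16 (SE 0.054, adjusted *P* = 0.0432), from -0.08, -0.23 and -0.17 on arrays 1, 2 and 3, and was at -0.19 between the *WT* pools. *Ret*, the target in the ureteric bud, was not well above background in *WT* or *Mut* on any array. *Hoxb1*, *Stra8* and *Cdx1* were not well above it either.

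**Figure D4:**
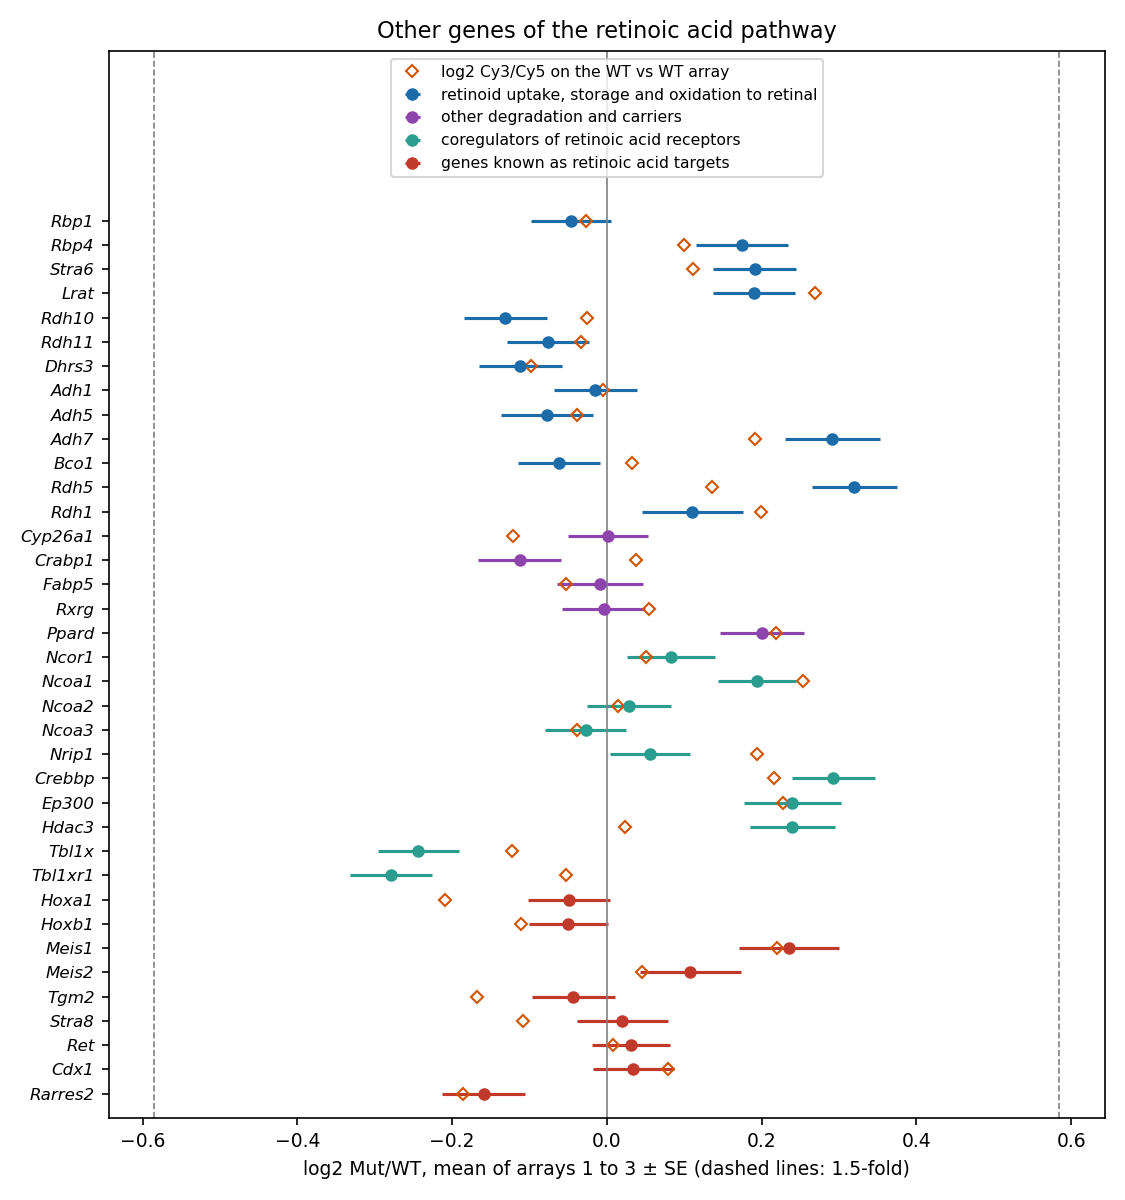
Mean log2 *Mut*/*WT* of arrays 1 to 3 with its SE (x axis) for 37 other genes of the retinoic acid pathway (y axis), coloured by list, and log2 Cy3/Cy5 on the *WT* vs *WT* array (open diamonds). All means lie within 1.5-fold (dashed lines), from -0.28 for *Tbl1xr1* to 0.32 for *Rdh5*.

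The genes most like *Aldh1a2*, the member with the highest mean signal, were sought by the Pearson correlation of the normalized log2 signal over the 8 channels of the slide. Among 12503 probes of named genes that were well above background in all 8 channels, *Rnaseh2b* (r = 0.991), *Ung* (r = 0.990) and *Grpel1* (r = 0.987) ranked first. *Rnaseh2b* encodes a subunit of ribonuclease H2, *Ung* a uracil DNA glycosylase and *Grpel1* a mitochondrial cochaperone. Their log2 *Mut*/*WT* was 0.08, 0.16 and 0.18, and none was called. The channels share arrays, dyes and pools, so the correlation is a description with no *P*.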

How the data were processed

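For 4 dual-colour arrays of 1 slide, the files the authors deposited come from Agilent Feature Extraction 10.7.3.1. They hold intensity values of each spot and its background, made by the authors by scanning and without normalization, and the deposited log10 ratio of red over green with background subtracted and dyes normalized by the program. The series' value table repeats those log10 ratios (180072 of 180072 match to within 1e-06 log2 units). The study's GeneSpring values were not analysed here.

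From the median signal and background, the background was corrected by normexp (offset 50) and log ratios were normalized by loess within arrays. Control spots and 122 to 162 outlier spots per array were left out and spots of a probe averaged. Single channels were normalized by Aquantile. Ratios were taken as Cy3 over Cy5 (*Mut* over *WT* for arrays 1 to 3) and tested against 0 by limma 3.58.1 (R 4.3.3), adjusting *P* over 41166 probes by Benjamini-Hochberg, on a fit tested on simulated data. Probes were well above background (a flag of the program) in 45.1% to 51.1% of cases in Cy3 and 54.1% to 58.3% in Cy5, and 0 spots were saturated. The number of arrays limits the precision. *Mut* and *WT* pools on 1 array deviated together from the means of their groups (r = 0.388, 0.431 and 0.320), so the shared array pairs them. Separate sorts or litters behind the pools were not given, so the spread between these pools may be technical. The limma SE and *P* of a probe combine its own spread between arrays with that over all probes. The brighter *Rxra* probe had an SE of 0.0035 from its own arrays, beside 0.051 in limma. The dimmer *Rxrb* probe had 0.20, beside 0.097.

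Symbols came from a GRCm38.p6 table, matched by accession for 22951 of 41174 probes and used for names only. *Csf1r* and *Cd68* of the marker lists were not matched. Listed genes are represented by their brightest probe. The genes named are all members, of each pathway list those called and the gene with the largest change in each direction, the 3 probes most like the brightest member, cell type markers and *Atp6ap2*. The other pathway genes named in the text (among them *Stra6*, *Rbp4*, *Lrat*, *Adh7*, *Dhrs3*, *Ep300*, *Hdac3*, *Tbl1x* and *Ret*) were chosen after their values were seen, and 2 genes first listed are not reported here. Members and lists were chosen with earlier results of these data known. Alternatives covered the values, offset, centring, outlier spots, dim probes, a dye term from array 4, unpaired channels, each replicate left out, the methods' *t*-test, the fold minimum and the median over probes.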

Additional observations from a re-analysis of the deposited data

How the results depend on the processing

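Over all probes 827 were called. The count was 2705 with the deposited log ratios, 323 with the dye term, 0 with normexp without offset (1347 higher and 2175 lower at the unadjusted *P*), 0 with median centring (12 higher and 6016 lower at the unadjusted *P*), 0 with the methods' *t*-test after adjustment and 691 before it, and 12187 with no fold minimum. Leaving out 1 replicate gave 606 to 1207. The count of member probes called higher was 0 under each alternative but no fold minimum, where it was 4. The count of those called lower, 1, became 0 with the deposited log ratios, without offset, with median centring, with the dye term and with the adjusted *t*-test, and 3 with no fold minimum. It was 1 without each replicate in turn. The count for the other pathway genes, 0, became 1 with the deposited log ratios and 14 with no fold minimum.

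Without the replicate block, with the channels of arrays 1 to 3 unpaired, 824 probes were called, and the pairing changed no member's call. Signs turned at 6 probes with the dye term, to -0.18 for *Aldh1a1*, 0.025 for *Aldh1a3*, -0.081 for *Rarb*, -0.14 for the dimmer *Rxra* probe, 0.029 for the brighter *Rxrb* probe and 0.022 for *Crabp2*. With median centring they turned at 6, to -0.45 for *Aldh1a2*, 0.030 for *Rara*, -0.53 for *Rarb*, 0.082 for the brighter *Rarg* probe, -0.37 for the brighter *Rxra* probe and -0.10 for *Cyp26b1*. With 1 replicate left out *Rarb* ranged from -0.019 to 0.11 and *Crabp2* from -0.15 to 0.043. None of these probes was called before or after. The cause was not tested. With the median of both probes of a gene, *Rarg* was at -0.17, *Rxra* at 0.12 and *Rxrb* at -0.54. The filter on dim probes kept 10 of the 13 member probes and left their log2 ratios as they were, so no sign could change. No call changed. The dimmer *Rarg* probe passed the filter through its *WT* channels alone. Signal over background limits what can be said of *Rara*, *Rarg*, *Aldh1a1* and the dimmer *Rxra* probe.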
